A study of Mus musculus with 8 samples.

Results

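The nuclear genes for the subunits of mitochondrial oxidative phosphorylation were followed by RNA-seq in dissected mouse sympathetic ganglia that lacked or were low in the LIM-homeodomain factor *Isl1*. Members were taken by symbol alone, as every row whose name is that of a complex I subunit (*Nduf* a, b, c, s, or v), a succinate dehydrogenase subunit, a complex III subunit (*Uqcr*, *Cyc1*), cytochrome c (*Cycs*), a complex IV subunit (*Cox4* to *Cox8* with a letter a, b, or c), or an ATP synthase subunit (*Atp5*). This rule found 82 members among 13506 genes at E11.5 and 81 among 13413 at E14.5, where *Atp5g2* has no row. Of the 82, 35 belong to complex I, 4 to complex II, 9 to complex III, 14 to complex IV, and 15 to complex V, 1 is *Cycs*, and 4 (*Cox7a2l*, *Ndufa4l2*, *Atp5s*, *Atp5sl*) share a symbol stem with the subunits without being counted here as subunits. Genes of the mitochondrial genome were not analysed here.

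Oxidative phosphorylation is the last stage of respiration. Complexes I and II pass electrons from NADH and succinate to ubiquinone, complex III passes them to cytochrome c, complex IV passes them to oxygen, and complex V uses the proton gradient built on the way to make ATP. All complexes except complex II also hold subunits coded by mitochondrial DNA, and neurons depend on the system for firing and transport.

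At E11.5 to E12, *Isl1* CKO ganglia (*Wnt1-Cre;Isl1* f/f, in which Cre removes *Isl1* from neural crest cells) were compared with *Wnt1-Cre;Isl1* +/+ control ganglia, and both carried Cre and a *Rosa26-tdTomato* reporter. At E14.5, ganglia homozygous for a floxed allele that keeps its neo cassette (*Isl1* f-neo/f-neo, the hypomorph, in which the allele is not limited to the neural crest) were compared with wildtype ganglia. Each genotype had 2 libraries of pooled embryos, about 10 per sample by the labels, and the deposited tables hold 1 pooled FPKM (fragments mapped to a gene, scaled by its transcript length and by the mapped reads of the sample) per gene and genotype. No spread between libraries can be given from these values, no test was made here, and every difference below compares 1 pooled value with another. The read depth is unknown.

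*Isl1* itself was 133 FPKM in control and 40.0 in CKO ganglia at E11.5, and 162 in wildtype and 83.1 in hypomorphic ganglia at E14.5. All 11 sympathetic neuron markers were present in all 4 genotypes, from 48.1 FPKM upward in control ganglia. Their median log2 ratio was -0.42 at E11.5 and -0.23 at E14.5. At E11.5, markers of other cells were higher in the CKO column. The median log2 ratio was 7.15 for the 3 trophoblast and decidua genes with a row (summed level 0.346 and 81.2 FPKM). It was 3.59 for 11 erythroid, 1.22 for 7 macrophage, 1.19 for 7 neural crest and glial, and 0.94 for 4 yolk sac genes. For 8 mesenchymal, 15 muscle, and 7 endothelial genes it was 0.77, 0.75, and 0.45. The erythroid sum was 10886 FPKM in control and 69069 in CKO ganglia, with the globin gene *Hbb-y* listed at 0 in the latter. In whole ganglia, fewer cells of a type and less RNA per cell cannot be told apart, and the part of these cells in the values below was not tested.

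Stretches of 6 members' promoters are shown because motifs of known regulators of respiratory genes are found there in more members than in genes at large. RefSeq (build GRCm38.p6, not the build of the expression tables) gave a promoter, from 250 bases before to 50 bases after the start, for 69 of the 82 members. The letters GCGCANGCG, which the factor NRF1 is known to bind, were searched on both strands and occur in 21 of these 69 (30.4%), against 7.03% of 27025 genes with a promoter. CCGGAAG, the core bound by the ETS factor GABP, occurs in 16 (23.2%, against 9.93%), and AAGATGGC, bound by YY1, in 11 (15.9%, against 3.19%). The 27025 genes were not limited to the 14189 symbols with expression values here, and the share among expressed genes alone was not counted. For each complex, the window is that of the member with the highest FPKM in E11.5 control ganglia among those with an NRF1-type match, at the match nearest the start. Capitals mark the match.
*Ndufs6* (complex I), chr13:73328479-73328507, minus strand: gactgctgtgCGCCTGCGCcggcacttgg
*Sdha* (complex II), chr13:74350232-74350260, minus strand: gcgactcggtGCGCAAGCGcagtctgtcg
*Uqcr11* (complex III), chr10:80406808-80406836, minus strand: atcgccttcaCGCATGCGCtatacgtctg
*Cycs* (cytochrome c), chr6:50566612-50566640, minus strand: catgctagctCGCATGCGCgcgcacaaac
*Cox6a1* (complex IV), chr5:115349057-115349085, minus strand: cggataaagtGCGCAGGCGctggagttcc
*Atp5k* (complex V), chr5:108434430-108434458, minus strand: ttcactgcggCGCATGCGCctttctggct
Matches on both strands overlap in some promoters, such as that of *Atp5k*, since the pattern reads almost the same on both. Members with and without an NRF1-type match had much the same median log2 ratio, 0.32 and 0.28 at E11.5 and -0.03 and -0.04 at E14.5. A match is a description of letters and not evidence of binding.

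In E11.5 control ganglia the members ranged from 0.324 FPKM for *Cox8b* to 724 for *Atp5b*, and together they took 2.57% of the FPKM sum of all genes. Complex V held 36.5% of the members' sum, complex I 26.5%, complex IV 20.9%, complex III 11.4%, and complex II 2.78%. FPKM is scaled by transcript length, but levels of members with near-identical genome copies, among them *Uqcrb* and *Ndufa12*, differed widely between the 2 tables, and their rank here holds for this table alone. The subunits that form the head of ATP synthase stood at the top, with *Atp5b* (beta, which holds the catalytic sites) at 724 FPKM and *Atp5a1* (alpha) at 489, and the other 13 members of complex V ranged from 125 for *Atp5g1* to 361 for *Atp5k*. Complex IV was led by *Cox8a* at 428 and *Cox6a1* at 401 FPKM, and complex III by *Uqcrb* at 264 and *Uqcrh*, the hinge protein, at 230.

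Complexes I and II lay lower. Of the nuclear core subunits of complex I, which carry its NADH site and iron-sulfur clusters, *Ndufs1* was 49.8 FPKM, *Ndufv1* 73.4, and *Ndufs3* 88.3. The highest of complex I were the accessory subunits *Ndufa12* at 182 and *Ndufa3* at 181 FPKM. In succinate dehydrogenase, the iron-sulfur subunit *Sdhb* was 121 FPKM, the flavoprotein *Sdha* 89.3, and the membrane anchors *Sdhd* and *Sdhc* 74.7 and 55.5.

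At E11.5, most members had a higher FPKM in CKO than in control ganglia. Of 82 members, 77 were higher and 5 lower, and the median log2 ratio was 0.31, against 0.05 over all 13506 genes. Of all genes, 53.9% were higher. The members' sum was 12252 FPKM in control and 15258 in CKO ganglia. The differences were small: 10 members were higher by 1.5-fold or more and 0 were lower by as much. Over all genes, 18.9% were higher and 12.9% lower by 1.5-fold, so that the 10 of 82 (12.2%) were fewer than the background in the upward direction. The quartiles of the members' log2 ratios were 0.20 and 0.43, and those of all genes -0.31 and 0.45.

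The size of this difference depends on the scale. The sum of all FPKM was 476289 in control and 617263 in CKO ganglia, so the members' share was 2.57% and 2.47%, slightly lower in the CKO. Without the erythroid genes the shares were 2.63% and 2.78%. When the 2 columns were brought to the same sum without erythroid and small RNA genes, the median of all genes moved from 0.05 to -0.19 and that of the members from 0.31 to 0.06, with complexes II and III just under 0. The distance between the members and all genes was 0.25 on either scale. Rescaling a column shifts every log2 ratio almost alike, so it could not have changed this distance.

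**Figure D1:**
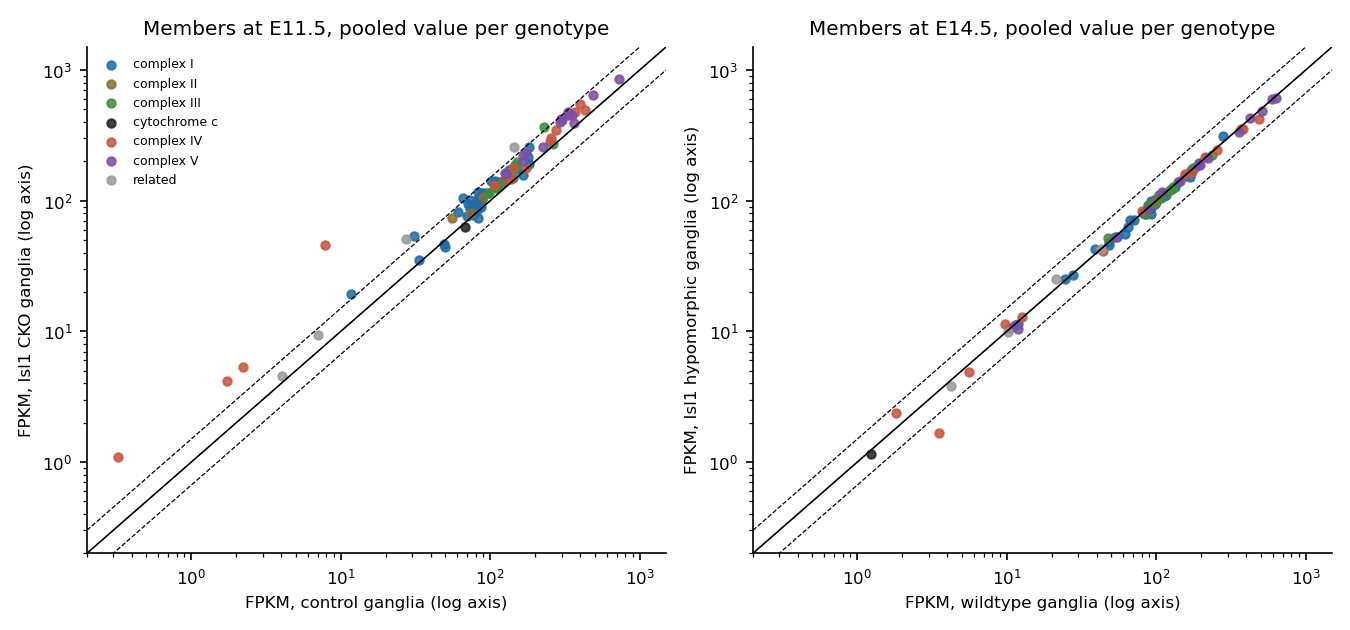
FPKM of each member in control (x axis) and mutant (y axis) ganglia at E11.5 (left) and E14.5 (right), on log axes. Each point is 1 member, coloured by complex, and the dashed lines mark 1.5-fold. At E11.5 the points lie mostly between the diagonal and the upper dashed line, with *Cox6b2* far above it (7.90 and 45.9 FPKM); at E14.5 they lie close to the diagonal, apart from *Cox8b* (3.52 and 1.66).

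Complex V had the highest median ratio of the 5 complexes at E11.5. All of its 15 members were higher in the CKO column, with log2 ratios from 0.12 for *Atp5k* (subunit e) to 0.53 for *Atp5j2* (subunit f) and a median of 0.39. *Atp5b* was 724 FPKM in control ganglia and 849 in the CKO, and *Atp5a1* was 489 and 640. The 3 genes for the c subunit, which code for the same mature protein of the rotor ring, had like ratios: *Atp5g1* was 125 and 164, *Atp5g2* 354 and 450, and *Atp5g3* 331 and 455 FPKM. F1, the ring, the membrane part, and the peripheral stalk had medians between 0.38 and 0.41.

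Complex I had a median of 0.27 and the widest range among the ordinary subunits. Of its 35 members, 31 were higher and 4 lower in CKO ganglia. The accessory subunits *Ndufa13* (30.7 in control and 54.1 FPKM in CKO ganglia), *Ndufa11* (11.7 and 19.4), and *Ndufb11* (65.3 and 105) passed 1.5-fold. None of the 3 passed it after rescaling without erythroid and small RNA genes, and *Ndufb11* did not after centring on genes of the members' length range. *Ndufb3* was at the other end, with 83.3 and 73.1 FPKM and a log2 ratio of -0.19. Among the core subunits, *Ndufs3* was 88.3 and 114 FPKM (log2 ratio 0.37) and *Ndufs1*, of the electron input arm, 49.8 and 44.3 (-0.17), and the median of the 7 was 0.26.

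The 4 subunits of complex II had log2 ratios of 0.10 to 0.41, with *Sdhc* at 55.5 and 74.1 FPKM and *Sdhd* at 74.7 and 79.9. Complex III had a median of 0.24, and *Uqcrh* alone passed 1.5-fold there, at 230 and 364 FPKM, though not after that rescaling (log2 ratio 0.42) or that centring (0.55). *Uqcrb* was nearly equal, at 264 and 270, and *Cyc1*, the cytochrome c1 that hands electrons on, was 111 and 128. *Cycs*, the carrier between complexes III and IV, was 68.2 FPKM in control and 63.1 in CKO ganglia, with a log2 ratio of -0.11, and so lay below the medians of all 5 complexes.

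In complex IV the widely expressed subunits and the isoforms of particular tissues had different values. The 10 widely expressed subunits had a median of 0.27 and none passed 1.5-fold. All 4 tissue isoforms did, at low levels in 3 of them. *Cox6b2*, known as the testis form (mm9 chr7:4703396-4704696, minus strand), was 7.90 FPKM in control and 45.9 in the CKO, a 5.81-fold difference. The heart and muscle forms were low throughout: *Cox6a2* was 1.73 and 4.18, *Cox7a1* 2.22 and 5.36, and *Cox8b* 0.324 and 1.10 FPKM. *Cox8b* reached an FPKM of 1 only in the CKO column, and with a pseudocount of 1 its log2 ratio was 0.67, past 1.5-fold by less. With a minimum of 5 FPKM, *Cox6a2* and *Cox8b* were not counted. Their widely expressed partners were far more abundant, *Cox6a1* by 231 times in control and 131 times in CKO ganglia and *Cox6b1* over *Cox6b2* by 47.1 and 10.4 times. All 15 muscle markers were also higher in the CKO column, with summed levels of 250 and 446 FPKM, and their part in the isoform values was not tested.

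Of the 4 related genes, *Ndufa4l2*, a paralog of *Ndufa4* that hypoxia induces, was 27.4 FPKM in control ganglia and 50.9 in the CKO, and *Cox7a2l*, which helps to join complexes III and IV, was 144 and 256. Both passed 1.5-fold, while *Ndufa4* (274 and 345) and *Cox7a2* (138 and 146) did not.

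**Figure D2:**
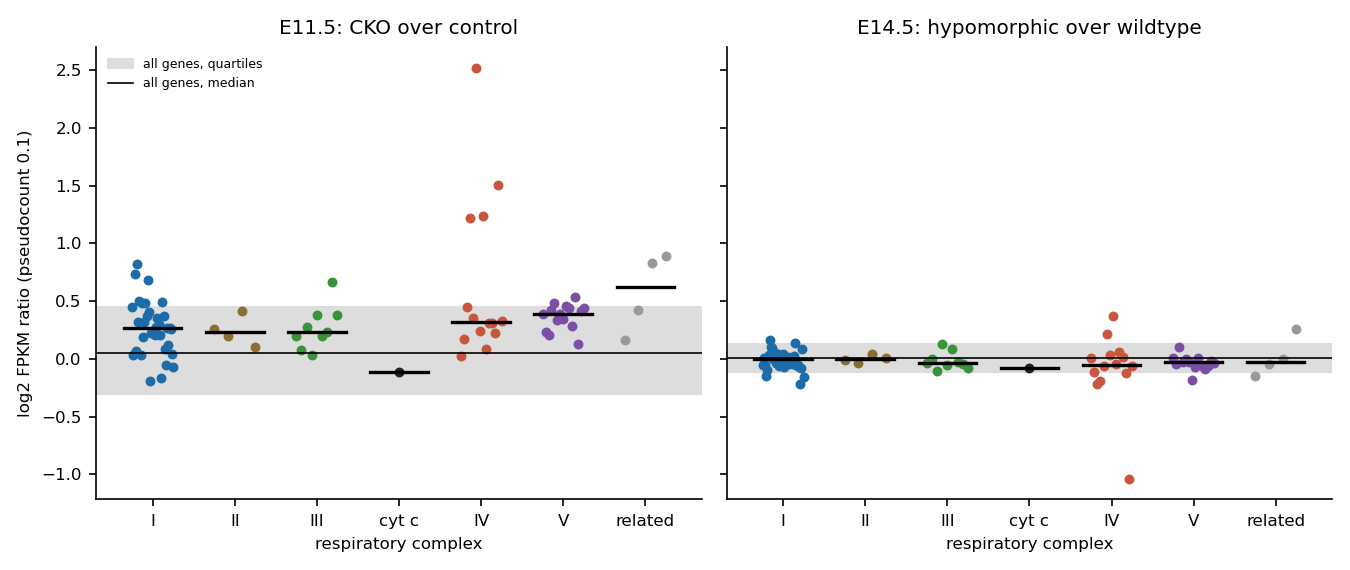
Log2 ratio of mutant over control FPKM (y axis) for each member by complex (x axis) at E11.5 (left) and E14.5 (right). Points are members, thick bars are the medians of the complexes, the line is the median of all genes, and the grey band spans their quartiles. At E11.5 the medians of complexes I to V lie between 0.23 and 0.39, and at E14.5 all lie within the band. After rescaling without erythroid and small RNA genes (not drawn), the E11.5 medians lie between -0.01 and 0.15, and that of all genes at -0.19.

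The members are short genes, and transcript length went with the E11.5 ratio over the whole table. The median transcript was 892 bases for members and 2857 for all genes with one. Other genes under 600 bases had a median log2 ratio of 0.47, those of 600 to 1000 bases 0.33, those of 1000 to 2000 bases 0.21, and those of 5000 bases or more -0.23. Members in the first 3 of these bins had medians of 0.33, 0.28, and 0.25. Below 1000 bases the members' medians were under those of other genes of their length, and at 1000 to 2000 bases above. The 5 members of 2000 to 3000 bases had a median of 0.26, against 0.10 for other genes, and the 4 of 3000 to 5000 bases 0.40, against -0.03. Each length is that of the annotated transcript with the longest coding sequence, which need not be the one expressed. Among the 4, *Ndufb2* was given 4371 bases for a coding sequence of 318, *Atp5g1* 4715 for 411, *Sdhc* 3171 for 510, and *Cycs* 3123 for 318. Their place in these bins rests on that choice. At E14.5 the medians of other genes differed little by length, from 0.04 to -0.01.

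**Figure D3:**
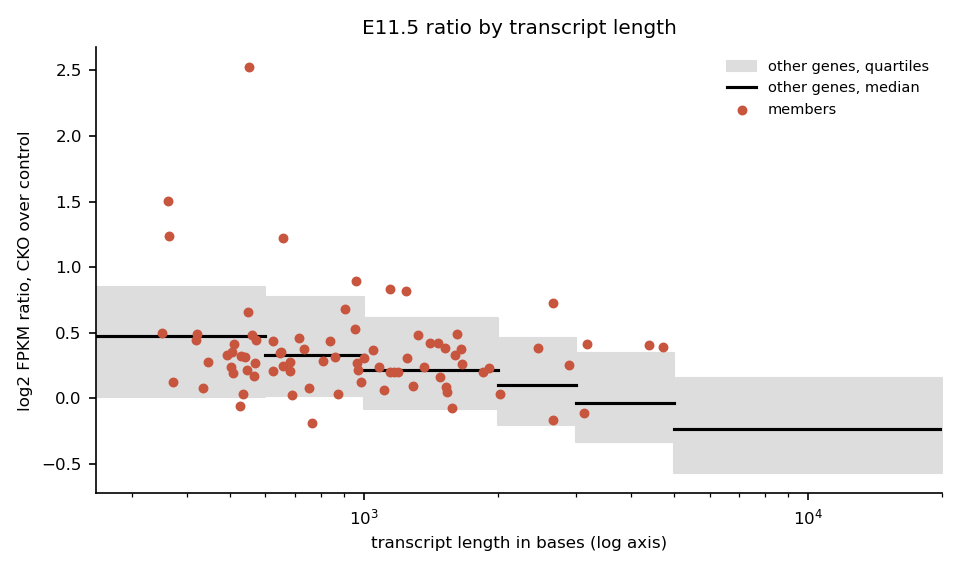
Log2 ratio of CKO over control FPKM at E11.5 (y axis) against transcript length in bases (x axis, log). Red points are the 82 members, black lines are medians and grey bands quartiles of all other genes in 6 length bins; the medians go from 0.47 under 600 bases to -0.23 at 5000 or more, and most members under 1000 bases lie inside the band.

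Other mitochondrial gene lists had lower medians than the members at E11.5. The 77 mitochondrial ribosomal proteins, which are nearly as short (median transcript 1162 bases), had a median log2 ratio of 0.08, with 49 higher and 28 lower. The 18 genes of the TCA cycle (median transcript 2454.5 bases) had 0.08 and 37 assembly factors (1948.5 bases), which build the complexes, 0.03. These transcripts are longer than the members', and other genes of 1000 to 2000 bases had 0.21 and of 2000 to 3000 bases 0.10. The lists were not matched for length. Of the TCA genes, *Suclg2* was 10.2 and 18.1 FPKM and *Idh2* 103 and 144. Of the assembly factors, *Sco1*, a copper carrier for complex IV, was 6.23 and 3.54 and *Nubpl*, needed for the clusters of complex I, 7.17 and 11.3. Of 11 regulators of mitochondrial biogenesis, 8 were lower (median -0.25), none by 1.5-fold. *Pprc1* (13.8 and 10.5 FPKM) and *Polrmt* (8.08 and 6.26) differed most. *Nrf1* (17.5 and 15.1), *Gabpa* (23.0 and 19.7), and *Tfam* (14.7 and 12.3), chosen later, were also lower. The other 3, *Yy1* (40.0 and 42.5), *Tfb1m* (5.82 and 6.22), and *Tfb2m* (14.6 and 15.5), were slightly higher. The median transcript of the 11 regulators was 3755 bases, and other genes of 3000 to 5000 bases had -0.03. All 16 glycolysis genes were higher, with a median of 0.42, as were all 79 cytosolic ribosomal proteins, with 0.65. Subunits outside the symbol rule were mixed: *Cox4i1*, the main form of complex IV subunit 4, was 365 and 539 FPKM, and *Ndufab1* of complex I 92.7 and 85.5.

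**Figure D4:**
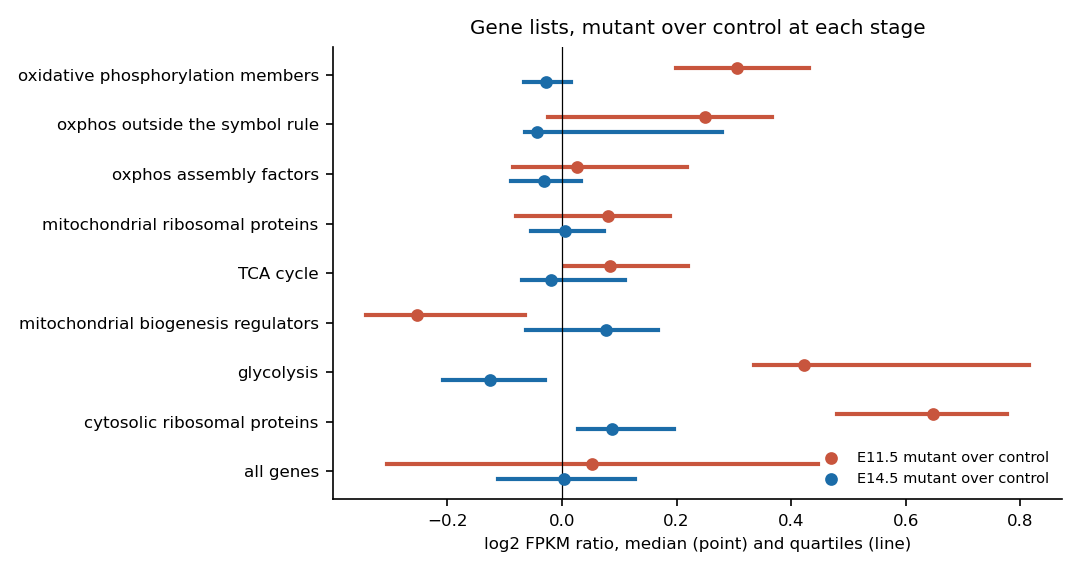
Median (points) and quartiles (lines) of the log2 FPKM ratio of mutant over control (x axis) for 9 gene lists (y axis), in red at E11.5 and in blue at E14.5. At E11.5 the oxidative phosphorylation members (0.31), glycolysis (0.42) and cytosolic ribosomal (0.65) genes lie above the other mitochondrial lists, which were not matched for transcript length. At E14.5 the medians lie between -0.13 and 0.09.

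At E14.5 the members were nearly the same in hypomorphic and wildtype ganglia. Of 81 members, 78 had log2 ratios within 0.25 of 0 and 64 within 0.1. The quartiles were -0.07 and 0.02 for the members and -0.11 and 0.13 for all genes, so the whole table differed little at this stage. The median was -0.03, against 0.00 for all genes, and the sum was 10772 FPKM in wildtype and 10532 in hypomorphic ganglia. *Cox8b* alone passed 1.5-fold, at 3.52 and 1.66 FPKM, and 0 were higher by as much. Over all 13413 genes 2.12% were lower and 2.89% higher. *Cox7a1* had the highest ratio, at 1.80 and 2.36 FPKM (0.37), but both isoforms lie at low levels. The medians of complexes I to V were between -0.05 and 0.00.

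Named members showed how close the columns were. *Atp5b* was 634 FPKM in wildtype and 615 in hypomorphic ganglia, *Sdha* 97.9 and 97.4, and *Ndufs1* 48.5 and 48.5. *Cox6a1* was 487 and 419 and *Ndufs8* 92.2 and 79.2, both with a log2 ratio of -0.22, the lowest among members above 5 FPKM. *Cox6b2*, far apart at E11.5, was 9.76 and 11.3. Of the muscle markers, 11 of 13 were lower in the hypomorphic column (median -0.12). The other cell lists were mostly higher there, with medians of 0.58 for 4 yolk sac, 0.47 for 7 endothelial, 0.38 for 13 erythroid, 0.28 for 8 mesenchymal, 0.25 for 7 macrophage, and 0.11 for 7 neural crest and glial genes. The comparisons at the 2 stages differ in allele, age, and background, and the difference between them was not tested.

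Between the stages, some members had very different levels in the control columns, which come from tables normalized separately. *Cycs* was 68.2 FPKM in E11.5 control and 1.23 in E14.5 wildtype ganglia, 55.5 times lower. *Atp5l* (subunit g) was 175 and 11.3, *Cox7c* 143 and 12.7, *Atp5g1* 125 and 11.8, and *Ndufb4* 87.7 and 10.4. The mutant columns had a like gap, with *Cycs* at 63.1 in CKO and 1.16 in hypomorphic ganglia and *Atp5l* at 233 and 11.2. *Atp5h* (304 and 53.0), *Cox5b* (252 and 44.3), and *Uqcrb* (264 and 47.8) were also lower at E14.5. Other subunits of the same complexes were level or higher there, such as *Cyc1* at 111 and 117, *Ndufa3* at 181 and 280, *Cox7a2* at 138 and 172, *Atp5e* at 300 and 598, and *Atp5g3* at 331 and 512 FPKM in the control columns. In all, 10 of 81 members were at least 3 times lower at E14.5. The share of all genes with such a gap was not counted.

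Members that were much lower at E14.5 tend to have further copies of their coding sequence elsewhere in the genome. A copy was counted when at least 80% of a coding sequence aligned to mm9 outside its own gene with at least 90% identity. By this count 33 of 82 members (40.2%) had one, against 8.14% of 12470 genes. Of the members' 92 copies, 47 overlap an annotated pseudogene, 20 lie within a protein-coding gene, and 25 in no annotated gene. A copy of 95% identity or more was found for 21 of the 82 members (25.6%). The 8.14% above does not apply to this class. Of other genes present at both stages, the closest copy was of 95% to 97% identity for 163, 97% to 99% for 203, and 99% or more for 249. It was of 90% to 95% for 296, and 10525 had none. Of the 10 members that were at least 3 times lower at E14.5, 9 had a copy of 95% or more, a share not counted for other genes with such a gap. The exception was *Cox7a2l*, at 144 and 42.6 FPKM, for which no copy was counted here and 1 of under 95% identity by the first count described next.

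This count is the second of 2 that were tried. The first aligned the longest whole transcript with longer seeds and asked for 60% of it. It found a copy for 20 members (24.4%) and 5.83% of all genes, and one of 95% identity or more for 5 of the 10 members. It was replaced after it had been seen to miss *Cycs*, *Cox7c*, *Atp5g1*, *Ndufb4*, and *Ndufa12*, so the 9 of 10 is not independent of the values, and it is given as a description.

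To show what such a copy looks like, the first 30 bases of 2 coding sequences are given beside their closest copy (mm9), with mismatches in capitals. *Cycs* (mm9 chr6:50512562-50516537, minus strand) matches its copy over all 318 bases, and *Ndufs3* (chr2:90734791-90744984, minus strand) differs at 11 of 792.
*Cycs*, coding bases 1 to 30: atgggtgatgttgaaaaaggcaagaagatt
Copy at chr19:24950243-24950272, plus strand: atgggtgatgttgaaaaaggcaagaagatt
*Ndufs3*, coding bases 1 to 30: atggcggcggctGcagccagggtctgGtgt
Copy at chr11:58207033-58207062, minus strand: atggcggcggctAcagccagggtctgTtgt
*Ndufs3*, a core subunit of complex I, was 88.3 FPKM in E11.5 control and 24.5 in E14.5 wildtype ganglia.

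The level at E14.5 against E11.5 went down with the identity of the closest copy, for members and for other genes alike. The 49 members without a copy had a median log2 ratio of 0.17 and the 10525 other genes without one 0.28. At 95% to 97% identity the medians were -0.66 for 6 members and -0.71 for 163 other genes, at 97% to 99% they were -1.44 for 6 and -1.26 for 203, and at 99% or more -3.22 for 8 and -2.68 for 249. The bins hold few members. Between 90% and 95% they parted, at 0.19 for 12 members and -0.34 for 296 other genes. By the first count the medians of other genes had the same order, from 0.27 without a copy to -3.27 at 99% or more, while the members without a copy then included *Cycs*, at -5.68. How reads with more than 1 match were treated at each stage was not tested.

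**Figure D5:**
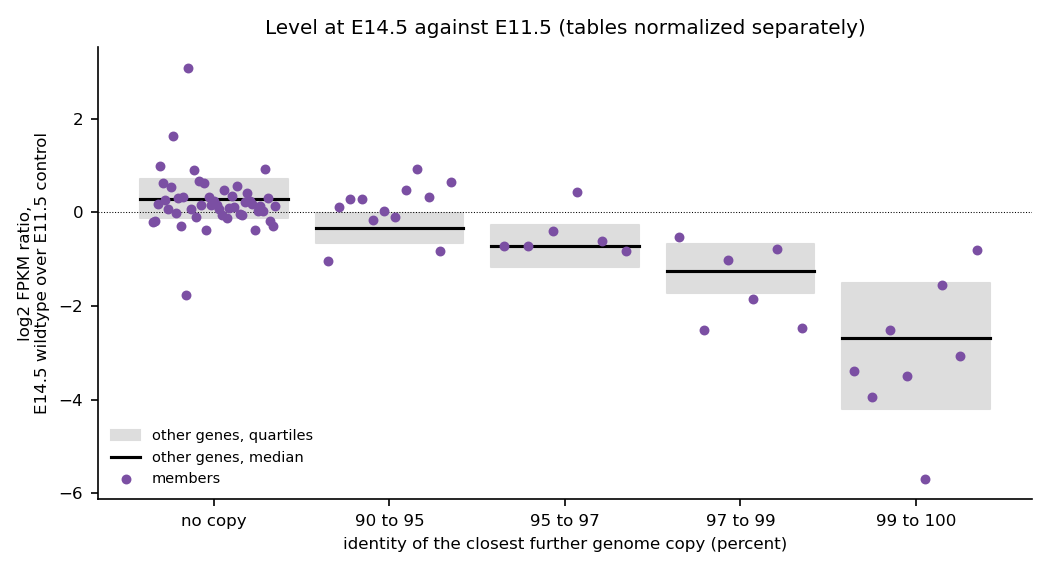
Log2 ratio of E14.5 wildtype over E11.5 control FPKM (y axis, tables normalized separately) by the identity of the closest further genome copy (x axis, percent, by the second of 2 copy counts). Purple points are 81 members, black lines are medians and grey bands quartiles of other genes; the medians of members go from 0.17 without a copy to -3.22 at 99% or more.

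Within a stage, members with and without a copy had medians of 0.31 and 0.30 at E11.5, and of -0.05 and -0.01 at E14.5. Among the 49 members without a copy, the sum was 6057 FPKM in E11.5 control and 6835 in E14.5 wildtype ganglia. Of these members, 35 were higher and 14 lower at E14.5. The members were near the background here, since 31.9% of the 10525 other genes without a copy were also lower at E14.5. *Atp5e* (epsilon), *Sdhc*, and *Ndufa1* were the ordinary subunits among the members without a copy with the highest ratios. The last 2 were at log2 0.92 and 0.90, and all were chosen after their values were seen.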

How the data were processed

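Sympathetic ganglia were compared at E11.5 (*Isl1* CKO and control) and E14.5 (*Isl1* hypomorphic and wildtype), with 2 libraries per genotype. Per the paper's methods, polyA RNA was amplified with a SMARTer kit, sequenced as paired reads, and aligned to mm9 with TopHat, and uniquely mapped reads were used by cuffdiff. The submitters' processing notes instead name Bowtie, TopHat 1.3.1, Cuffdiff 1.3.0, and build dm3, and the difference could not be settled here. The deposited unit is FPKM, computed by the authors as 1 value per gene and genotype over both libraries. The tables also hold the authors' log2 fold changes and p-values, which were not used. The samples were grouped by their labels. With 1 pooled value per genotype, no test was made and depth per library is unknown.

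Ratios were log2((mutant FPKM + 0.1)/(control FPKM + 0.1)). A filter of FPKM 1 or more in either genotype removed 0 genes, and 1.5-fold was counted. The members, the gene lists, and the thresholds were chosen with earlier results of these data known. Members were named when among the 2 highest of a complex, at the ends of its range of ratios above 5 FPKM, past 1.5-fold, or when in complex II, the core of complex I, or an isoform set, and others are marked as chosen later or stand for a stage gap. The values of 1 member that this rule names are not reported here.

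Transcript lengths and positions came from GENCODE vM1 (mm9). Copies were sought with minimap2 2.31 (k 13, at least 80% of the coding sequence, 90% identity, over 1000 bases from the gene). The search as a whole was added after the values had been seen, and its definition was revised once, from whole transcripts (k 15, 60% covered), because that missed members with large gaps between the stages. Both are given. Alternatives were other pseudocounts, filters, scales, and folds. The code was tested on simulated data and used Python 3.11.15, numpy 2.4.6, pandas 2.3.3, pysam, and matplotlib 3.10.9.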

Additional observations from a re-analysis of the deposited data

How the results depend on the processing

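Only 1 pooled value per genotype was used, so no library could be left out, depth cannot be weighed, and a median was called moved when it shifted by more than 0.1 on the log2 scale. No paired analysis was possible because the columns pool the replicates. At E11.5, rescaling without erythroid and small RNA genes gave a members' median of 0.0634 and complex medians of 0.0269 (I), -0.0149 (II), -0.00631 (III), 0.0793 (IV), and 0.15 (V), with 6 members higher by 1.5-fold. *Ndufa11*, *Ndufa13*, *Ndufb11*, and *Uqcrh* were lost. Centring on genes of the members' length range gave 0.19 for all members and 0.16, 0.12, 0.12, 0.21, and 0.28 for complexes I to V. A fold of 1.2 gave 47 members higher at E11.5 and 1 at E14.5, and a fold of 2 gave 4 at E11.5. With FPKM 5 or more, 0 members were lower at E14.5. Without erythroid genes the members took 2.78% of the FPKM sum in CKO ganglia, and without small RNA genes 2.77% in wildtype and 2.76% in hypomorphic ganglia. By the first of the 2 copy counts, 20 members and 5.83% of all genes had a copy, and members with a copy of 95% identity or more had a median stage log2 ratio of -1.03, against -1.29 by the second. Both counts and the settings that leave out members with such copies were chosen after seeing the data. Of 196 values for medians, counts, and shares, 173 were not called moved. Some of these could not have moved, since the filter removed 0 genes and a change of fold cannot alter a median. The tally is therefore no measure of how stable the results are.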
